A study of Mus musculus with 8 samples.

Results

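The 35 genes described here encode the proteins of homologous recombination and Fanconi crosslink repair, together with members of mismatch repair and end joining. They were chosen by pathway and were divided into 20 genes of recombination, 7 of crosslink repair, 2 of mismatch repair and 6 of end joining. All 35 were found among the 54838 genes listed, and all 35 were among the 12405 genes with enough reads to be tested. Each also had at least 10 reads in every sample.

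RNA-seq was performed on *iMLL-AF9* mouse cells treated with IOX5, an inhibitor of the HIF prolyl hydroxylases (PHDs), or with dimethylsulfoxide (DMSO), its vehicle, with 4 samples per group. PHDs mark the hypoxia-inducible factors HIF-1α and HIF-2α for degradation when oxygen is present. Both groups carried the doxycycline (DOX)-inducible *MLL-AF9* oncogene, came from bone marrow (BM) and bore the genotype label WT. The labels name the cells leukaemic stem cells, the design text names them preleukaemic and the methods speak of leukemic cells, on a C57BL/6 background. The IOX5 dose, the length of treatment, the number of animals and the meaning of the replicate numbers were not given in the sources used here. Nothing stated that the 4 samples of a group came from separate cultures or animals, so the *P* values measure only the spread between these samples.

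Homologous recombination repairs a double-strand break by copying the sister chromatid, and it works mainly during and after DNA replication. The break is sensed and its ends are trimmed, and BRCA1, BARD1, PALB2 and BRCA2 prepare the single strand for pairing with the matching sequence. The Fanconi anemia (FA) proteins recognize a crosslink that joins both strands at a stalled fork and hand the resulting break to recombination. Mismatch repair corrects copying errors, and end joining ligates broken ends without a template.

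The libraries held between 11351507 and 14116054 reads assigned to genes, and no pair of libraries agreed within sampling noise. DMSO replicates 3 and 4 were the closest pair, with a chi-square of 2.18 per degree of freedom over genes, where every other pair lay between 9.36 and 50.4. The pair at 9.36 was IOX5 replicates 3 and 4, so numbers 3 and 4 were the closest in both groups. All of these were kept as separate samples, and whether they came from separate cultures was not given. Values are given as CPM, the reads of a gene scaled to a common library total after correction by trimmed mean of M values (TMM) factors, which ran from 0.988 to 1.03. The known HIF targets tested, a check on the treatment, had positive log2 fold changes in 15 of 15 cases, and 7 of them passed the edgeR test described below (13 with its replicate block). *Hoxa9* stood at 250 ± 29.3 CPM (SD, n = 4) with DMSO and *Meis1* at 104 ± 9.44 CPM. Other progenitor markers varied more between DMSO replicates 1 to 4. *Kit* had 63.2, 44.0, 94.9 and 96.5 CPM, *Cd34* had 26.0, 23.2, 133 and 153 CPM, and *Flt3* had 0.47 to 2.19 CPM. Of 8 lymphoid markers, 6 had no read in any library. One library stood apart among the repair genes. IOX5 replicate 2 was the lowest of the 4 IOX5 samples for 25 of the 35 genes and the lowest of all 8 samples for 24, against 32.9% and 20.5% of all genes tested.

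The promoters of 5 of the genes are shown because the recombination and replication genes of dividing cells often share short promoter words. They belong to the gene with the smallest *P* value in each pathway (*Bard1*, *Fanca*, *Msh6* and *Polq*) and to the gene with the largest positive fold change (*Xrcc5*). Each window runs from 250 bases before to 50 bases after the start site, 5′ to 3′ on the gene's strand, taken from RefSeq on GRCm38.p6. Capitals mark matches on either strand to any of 4 E2F words (the letters TTCCCGC, the letters TTCGCGC, the letters TTGCCGC and the letters TTGGCGC), which the cell cycle factors of the E2F family can bind, or to the cell cycle homology word TTTGAA.
*Bard1*, chr1:71102923-71103222, minus strand: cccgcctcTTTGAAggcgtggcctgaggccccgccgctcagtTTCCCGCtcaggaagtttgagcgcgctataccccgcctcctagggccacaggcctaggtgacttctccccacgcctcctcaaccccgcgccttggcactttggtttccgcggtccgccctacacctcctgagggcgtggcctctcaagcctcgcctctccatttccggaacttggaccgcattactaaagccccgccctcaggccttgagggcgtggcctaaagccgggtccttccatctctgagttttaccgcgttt
*Fanca*, chr8:123318527-123318826, minus strand: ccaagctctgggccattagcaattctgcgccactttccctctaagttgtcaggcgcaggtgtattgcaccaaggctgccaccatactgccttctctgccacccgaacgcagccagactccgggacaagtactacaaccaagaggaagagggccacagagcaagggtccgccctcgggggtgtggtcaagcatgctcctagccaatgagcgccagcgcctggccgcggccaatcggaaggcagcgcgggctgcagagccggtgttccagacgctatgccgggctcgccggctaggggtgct
*Msh6*, chr17:87974800-87975099, plus strand: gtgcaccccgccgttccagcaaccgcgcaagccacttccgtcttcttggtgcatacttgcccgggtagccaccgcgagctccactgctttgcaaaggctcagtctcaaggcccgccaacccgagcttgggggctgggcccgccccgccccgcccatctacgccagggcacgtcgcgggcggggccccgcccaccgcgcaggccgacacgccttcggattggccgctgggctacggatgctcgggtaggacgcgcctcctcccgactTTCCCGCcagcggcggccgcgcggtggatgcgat
*Polq*, chr16:37011536-37011835, plus strand: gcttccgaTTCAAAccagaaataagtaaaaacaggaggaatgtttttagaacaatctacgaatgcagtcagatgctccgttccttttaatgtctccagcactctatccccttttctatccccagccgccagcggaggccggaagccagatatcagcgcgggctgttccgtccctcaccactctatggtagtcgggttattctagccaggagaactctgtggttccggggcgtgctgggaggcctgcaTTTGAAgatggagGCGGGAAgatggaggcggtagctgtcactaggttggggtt
*Xrcc5*, chr1:72307171-72307470, plus strand: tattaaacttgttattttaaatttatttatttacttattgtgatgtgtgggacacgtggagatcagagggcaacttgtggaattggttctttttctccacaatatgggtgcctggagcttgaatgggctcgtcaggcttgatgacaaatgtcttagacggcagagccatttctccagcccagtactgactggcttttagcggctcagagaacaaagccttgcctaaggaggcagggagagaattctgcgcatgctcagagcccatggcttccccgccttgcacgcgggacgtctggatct

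The *Bard1* window held an E2F word that began 208 bases before the start site and TTTGAA 242 bases before it. In *Msh6* and *Polq* the E2F word lay just past the start site, at base 17 and base 11 of the transcribed part. *Polq* held TTTGAA or its reverse complement at 2 places, 242 and 3 bases before the start site. The *Fanca* and *Xrcc5* windows held neither. A match of letters is a description and does not show that a factor binds there.

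RefSeq promoters were present for 27 of the 35 genes, with 30 windows in all (no window for *Rbbp8*, *Exo1*, *Rad50*, *Xrcc2*, *Prkdc*, *Rad54b*, *Fancd2* and *Nbn*). *Rad51c*, *Rad54l* and *Lig4* each had an additional window, and those of *Rad54l* overlapped almost fully. An E2F word occurred in 20 of the 30 windows (66.7%), against 16.6% of the windows of all genes tested and 9.57% of the 32851 windows in the table. The further genes of the same pathways listed below had lower shares, 36.5% in recombination, 45.5% in crosslink repair, 56.2% in mismatch repair and 11.1% in end joining. The share was 69.6% for replication fork genes and 17.4% for mitosis genes. It was 27.8% for nucleotide excision and 37.5% for base excision repair genes. TTTGAA occurred in 6.67% of the repair gene windows and 12.3% of those of all genes tested, but in 78.3% of those of mitosis genes. The word CCAAT occurred in 63.3% against 38.3%. The hypoxia response words ACGTG and GCGTG, which HIF can bind, occurred in 66.7% against 62.2%. The E2F share was close in windows of the genes lower with IOX5 in the paired fit described below (7 of 11, 63.6%) and in those of genes not called there (12 of 18, 66.7%). The *Chek2* window, which held an E2F word, is in neither group because *Chek2* was called higher in that fit.

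Before the comparison, the levels of the 35 genes were set side by side with DMSO, as CPM per kilobase of annotated exon. *Parp1*, whose product binds DNA nicks and breaks and adds poly(ADP-ribose), had the highest level (50.1 ± 2.87, SD, n = 4). It was followed by *Msh6*, a mismatch sensor (40.8 ± 3.16), and *Rad50*, part of the break-sensing complex (20.2 ± 1.12). *Brca1* stood at 11.5 ± 0.32 and *Bard1* at 6.43 ± 0.36, and *Brca2* was lower still at 3.73 ± 0.22. The order ended with *Rad51c* (1.91 ± 0.32), *Fancc* (1.77 ± 0.16), *Lig4* (1.51 ± 0.15) and *Xrcc5* (1.02 ± 0.25). Of the 35 genes, 14 exceeded the median of all genes tested, 7.11 CPM per kilobase. Of the 34 neighbours in this order, 27 pairs overlapped in their DMSO samples.

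**Figure D1:**
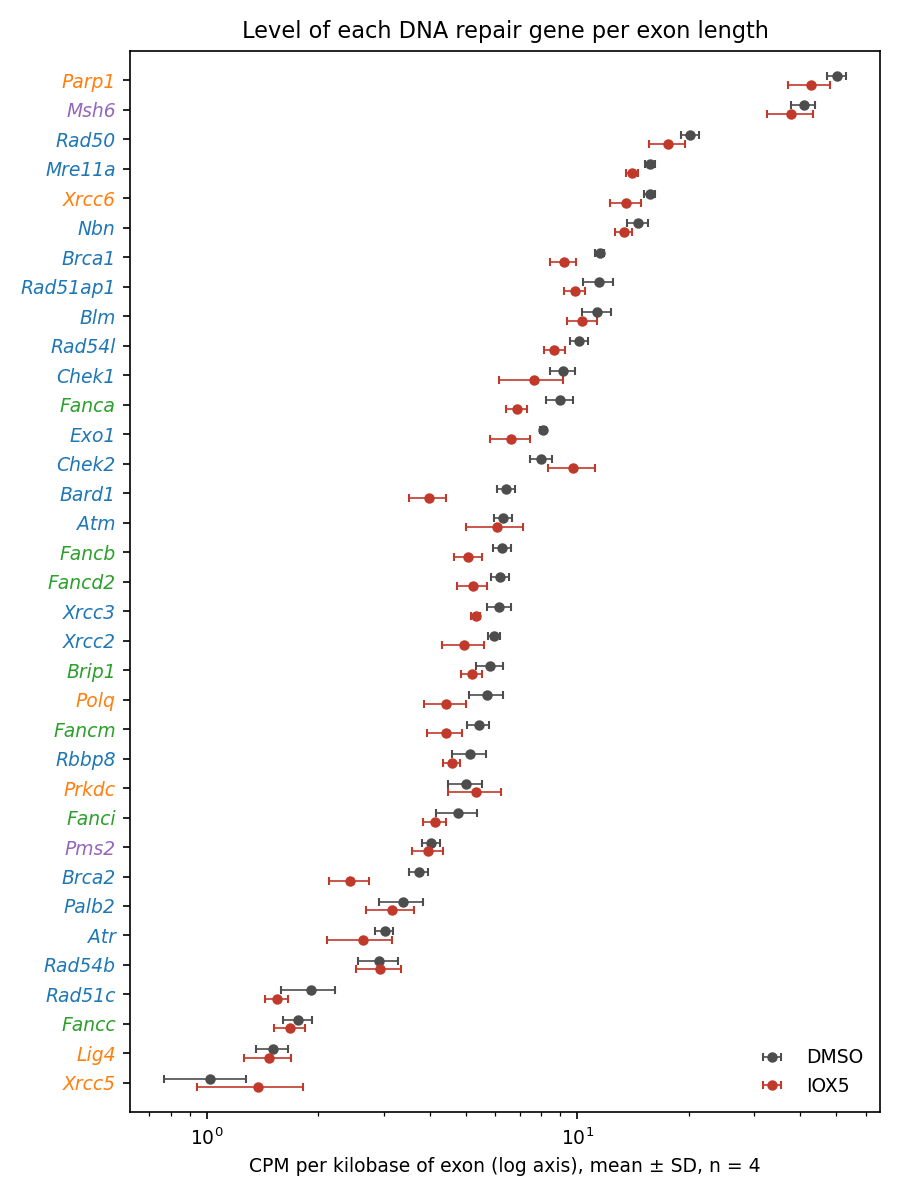
Level of each of the 35 repair genes in CPM per kilobase of exon on a log axis, with the mean and SD of 4 DMSO samples in grey and 4 IOX5 samples in red. *Parp1* (50.1) and *Msh6* (40.8) lie far above the rest with DMSO, and *Xrcc5* (1.02) is lowest.

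The design asks whether IOX5 changed the RNA of the repair pathways. Of the 35 genes, 31 had a log2 fold change below 0, against 47.2% of all genes tested. The median log2 fold change was −0.21, against 0.02 for all genes tested. At an adjusted *P* under 0.05 (edgeR), 3 of the 35 genes fell with IOX5 and 0 rose, namely *Bard1*, *Brca2* and *Fanca*. In the same test 1.25% of all genes were called lower and 0.774% higher (155 and 96 genes, or 108 and 101 under upper-quartile scaling). At an unadjusted *P* under 0.05 the repair genes counted 17 lower and 1 higher, against 11.2% and 8.98% of all genes. In bulk RNA, fewer cells in a given cycle stage and less RNA per cell cannot be told apart.

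The replicate numbers paired the samples, although numbers 3 and 4 were not told apart from each other. The same test was therefore run with the replicate number as a block. It called 13 repair genes lower and 1 higher in edgeR, against a background of 9.43% lower and 11.2% higher. The genes called lower were *Brca1*, *Brca2*, *Bard1*, *Rad51ap1*, *Rad54l*, *Xrcc2* and *Exo1* of recombination, *Fanca*, *Fancb*, *Fancd2* and *Fancm* of crosslink repair, and *Parp1* and *Polq* of end joining. *Chek2* was the gene called higher. All 4 IOX5 samples lay below all 4 DMSO samples for 14 repair genes and above them for 0, where 8.3% and 5.98% of all genes tested did so. DESeq2 called 4 repair genes lower (*Brca1* in addition to the 3 above) and voom 5 (*Brca1* and *Polq* in addition), with 0 higher in either. Over all genes DESeq2 called 5.75% lower and 4.67% higher, and voom 4.92% and 3.43%. Within numbered pairs, 21 repair genes were lower in 4 of 4 pairs and 2 were higher, against 19.8% and 21.4% of all genes.

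These counts depended on single libraries. Without the block, 0 repair genes were called when any of DMSO replicates 1, 2, 3 and 4 or IOX5 replicate 3 was left out, and 2 (*Bard1* and *Brca2*) when IOX5 replicate 1, 2 or 4 was. The call of *Fanca* was lost in all 8 cases. Over all genes tested the count was also 0 when DMSO replicate 3 or 4 or IOX5 replicate 3 was omitted, so that the unblocked calls of the other genes named here were lost there too. With the block, leaving out replicate numbers 1, 2, 3 and 4 gave 7, 9, 5 and 9 genes lower, and *Bard1*, *Brca2*, *Brca1* and *Fanca* were called each time. Of the other calls made with the block, *Polq* was lost without number 3 (adjusted *P* = 0.0629, edgeR) and *Exo1* without number 1 (0.0695). *Fancm* and *Fancd2* were called in 2 of these 4 fits, *Parp1* and *Rad51ap1* in 1, and *Fancb*, *Rad54l* and *Xrcc2* in 0. The counts also hold *Rad50* (adjusted *P* = 0.0444 without number 1, edgeR) and *Xrcc6*. Each was called lower in 1 of these fits but not in the blocked fit of all 8 samples. *Chek2* was called in 2 and lost without number 1 (0.137) or 3 (0.199). Without IOX5 replicate 2, the library that stood apart, the median log2 fold change was −0.15.

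**Figure D2:**
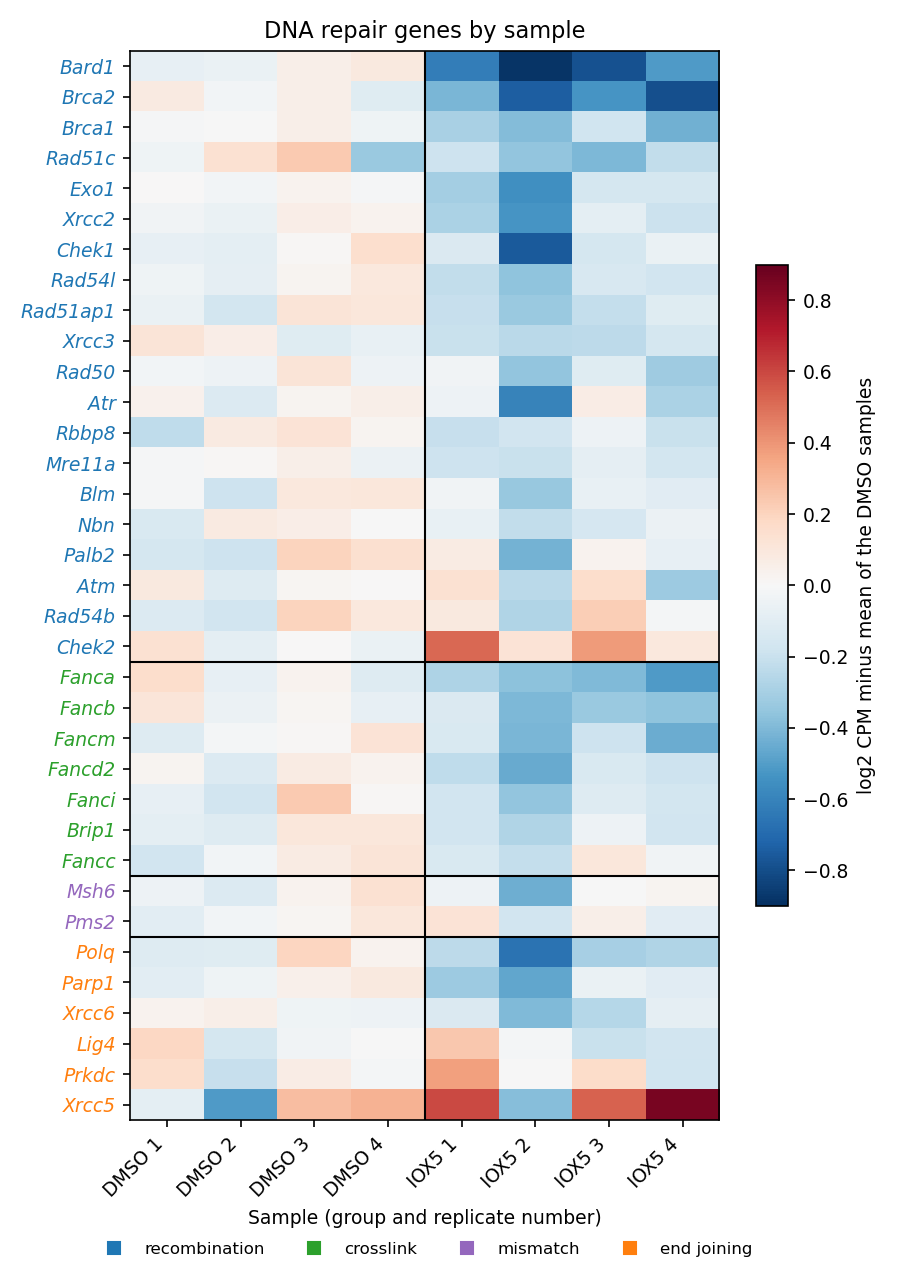
Log2 CPM of each of the 35 repair genes (rows, grouped by pathway) in each of the 8 samples (columns), minus the mean of the DMSO samples. Blue marks values below that mean, and the IOX5 replicate 2 column holds the lowest of the 8 values for 24 of the 35 genes.

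**Figure D3:**
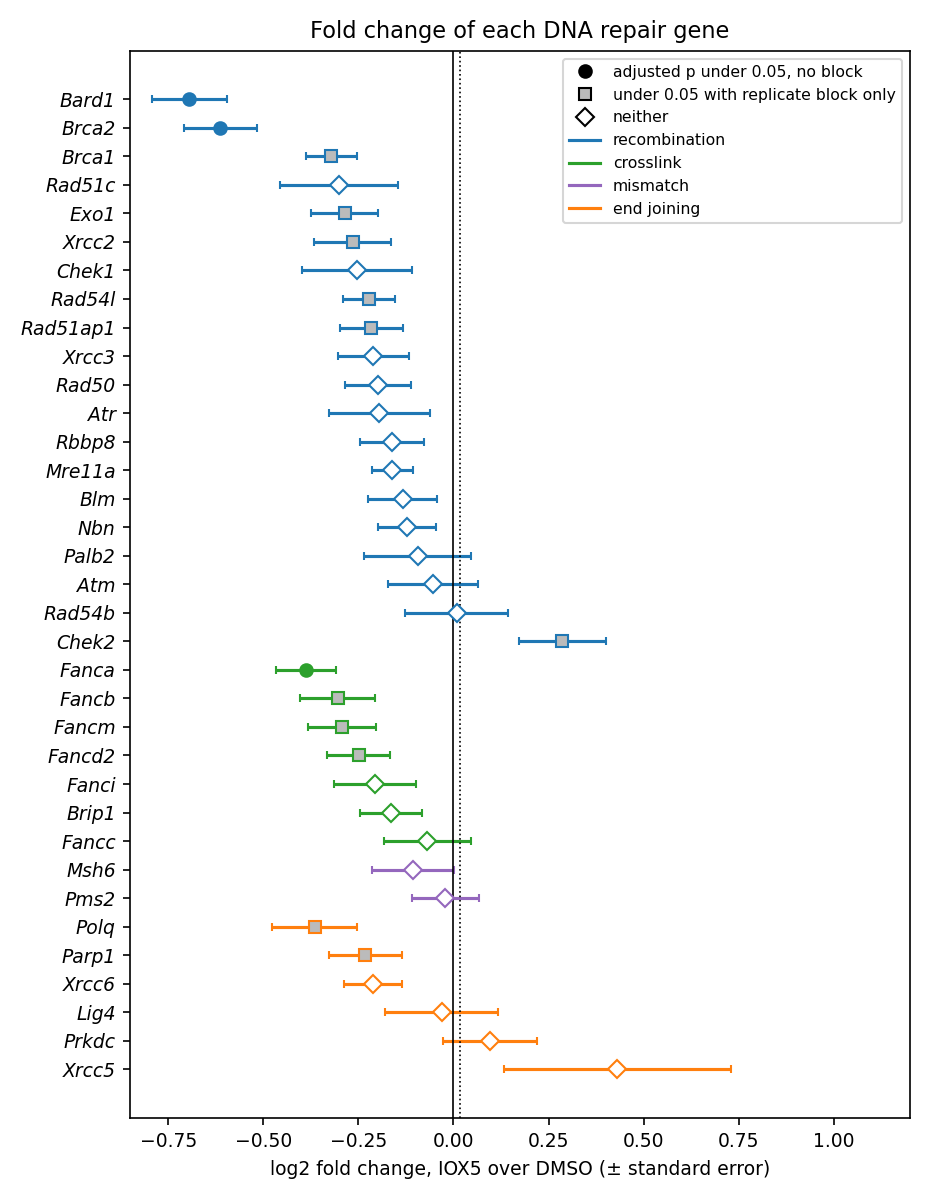
Log2 fold change, IOX5 over DMSO, with its standard error for each repair gene, colored by pathway. Filled circles mark the 3 genes with an adjusted *P* under 0.05 in edgeR without a block, squares mark genes under 0.05 only with the replicate block, and open diamonds mark the rest.

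Among the 4 genes of the BRCA group, *Bard1* and *Brca2* had the largest falls of all 35. The median log2 fold change of the 4 was −0.47. *Bard1* (ENSMUSG00000026196, chr1:71027498-71103146, GRCm38) encodes the partner that forms a ubiquitin ligase with BRCA1. It stood at 34.4, 34.8, 37.7 and 38.5 CPM in DMSO replicates 1 to 4 and at 23.5, 19.7, 21.1 and 25.5 CPM in IOX5 replicates 1 to 4. Every IOX5 sample lay below every DMSO sample. The mean was 36.4 ± 2.06 CPM with DMSO and 22.5 ± 2.57 CPM with IOX5 (SD, n = 4), or 61.8% of the DMSO level. The log2 fold change was −0.69 (SE 0.098, adjusted *P* = 0.0209, edgeR).

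*Brca2* (ENSMUSG00000041147, chr5:150522630-150570329) encodes a mediator that acts on the trimmed single strand. Its values were 53.8, 49.9, 52.7 and 47.1 CPM with DMSO and 38.1, 30.5, 35.1 and 29.3 CPM with IOX5. Again the groups did not overlap, and each pair was lower with IOX5. The log2 fold change was −0.61 (SE 0.096, adjusted *P* = 0.0254, edgeR), with IOX5 at 65.3% of DMSO.

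*Brca1* (ENSMUSG00000017146, chr11:101488764-101551955), which promotes end trimming and joins BARD1, stood at 97.3, 97.5, 102 and 95.3 CPM with DMSO and at 80.0, 74.7, 86.4 and 72.4 CPM with IOX5. The groups did not overlap. Its log2 fold change of −0.32 (SE 0.067) had an adjusted *P* in edgeR just above the threshold of 0.05, and 0.00372 with the replicate block. The adjusted *P* was 0.00172 with DESeq2 and 0.0327 with voom. *Palb2*, the bridge between BRCA1 and BRCA2, had a log2 fold change of −0.09 (SE 0.14, adjusted *P* = 0.751, edgeR), and its groups overlapped.

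The log2 ratios of 6 pairs of partner genes were then set side by side, as a description of pairs chosen after these values were seen. The log2 ratio of *Bard1* to *Brca1* was −0.84 ± 0.088 with DMSO and −1.21 ± 0.23 with IOX5 (SD, n = 4), and was lower in 4 of 4 pairs. That of *Palb2* to *Brca2* was −0.15 ± 0.24 with DMSO and 0.37 ± 0.17 with IOX5. From DMSO to IOX5 the mean ratio of *Xrcc5* to *Xrcc6* differed by 0.62, with few *Xrcc5* reads. The difference was −0.04 for *Rad50* to *Mre11a*, −0.08 for *Rad51c* to *Xrcc3* and 0.05 for *Fanci* to *Fancd2*. The smallest *P* adjusted over the 6 pairs was 0.0858 (exact permutation test). As the pairs were chosen after the values were seen, no conclusion is drawn from it.

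**Figure D4:**
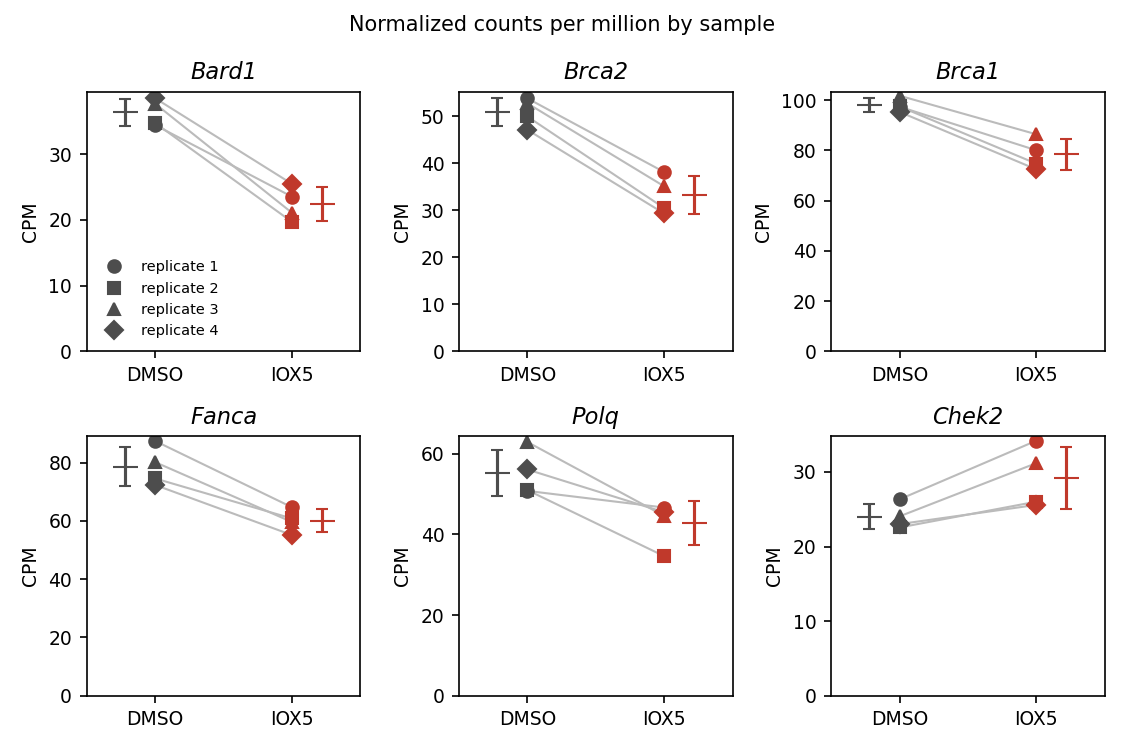
CPM of *Bard1*, *Brca2*, *Brca1*, *Fanca*, *Polq* and *Chek2* in each DMSO (grey) and IOX5 (red) sample, with lines joining equal replicate numbers and the mean ± SD beside them. The groups do not overlap for the first 5, and the *Chek2* groups do, with 22.6 to 26.3 CPM with DMSO and 25.6 to 34.2 CPM with IOX5.

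The 5 genes that sense breaks and trim their ends had a median log2 fold change of −0.16, and 0 of them passed the test without the block. *Exo1* (chr1:175880581-175913489), a nuclease that trims ends over long distances, stood at 68.4, 67.0, 69.9 and 67.6 CPM with DMSO and 55.2, 46.4, 61.0 and 61.1 CPM with IOX5. The groups did not overlap. Its log2 fold change was −0.29 (SE 0.089), with an adjusted *P* of 0.121 in edgeR and 0.0154 with the block. The MRN complex, which holds the ends and activates ATM, had log2 fold changes of −0.16 for *Mre11a*, −0.20 for *Rad50* and −0.12 for *Nbn*. Their adjusted *P* values with the block were 0.0804, 0.0512 and 0.323 in edgeR. *Rbbp8*, which encodes the trimming factor CtIP, had −0.16 (adjusted *P* = 0.325, edgeR).

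The 7 genes of strand pairing and unwinding had a median of −0.22, and 3 were called with the block only. *Rad54l* (chr4:116094264-116123690), a motor protein of strand invasion, stood at 75.8, 73.7, 79.3 and 83.2 CPM with DMSO and 66.7, 60.7, 70.6 and 69.3 CPM with IOX5. *Xrcc2* (chr5:25689812-25705825), a recombination mediator, had 30.4, 29.8, 32.4 and 31.7 CPM with DMSO and 25.5, 21.5, 29.2 and 27.2 CPM with IOX5. The groups did not overlap for either gene. *Rad51ap1* (chr6:126923050-126939587), which promotes strand pairing, had 52.7, 49.0, 59.3 and 59.0 CPM with DMSO and 47.6, 43.5, 47.4 and 50.9 CPM with IOX5. Here DMSO replicate 2 lay below IOX5 replicate 4, while each pair was lower with IOX5. The log2 fold changes were −0.22, −0.27 and −0.22 (SE 0.068, 0.10 and 0.082) for *Rad54l*, *Xrcc2* and *Rad51ap1*. Their adjusted *P* values in edgeR were 0.117, 0.192 and 0.189 without the block and 0.0248, 0.0390 and 0.0431 with it.

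The other 4 of this group were not called with or without the block. The mediator *Xrcc3* had a log2 fold change of −0.21 with groups that did not overlap, and its partner *Rad51c* had −0.30 with groups that did. *Blm*, a helicase that unwinds joined strands, had −0.13. *Rad54b*, a relative of *Rad54l*, had 0.01, and 2068 bases of its exons are shared on the same strand with *Fsbp*, so its count is less certain.

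Of the 4 damage kinases, *Chek2* was the 1 with a log2 fold change above 0 over all samples, and that of *Atm* was near 0. *Chek2* (ENSMUSG00000029521, chr5:110839979-110874145), the kinase that acts downstream of ATM, stood at 26.3, 22.6, 24.0 and 23.0 CPM with DMSO and at 34.2, 26.0, 31.2 and 25.6 CPM with IOX5. The groups overlapped, but each pair was higher with IOX5. Its log2 fold change was 0.29 (SE 0.11), with an adjusted *P* of 0.207 in edgeR and 0.0331 with the block, a call lost without replicate number 1 or 3. The kinase of stalled forks, *Atr*, and its effector *Chek1* had log2 fold changes of −0.19 and −0.25, with adjusted *P* values of 0.0907 and 0.0617 with the block. *Atm*, the kinase of double-strand breaks, had −0.05 (adjusted *P* = 0.841, edgeR), with 2 pairs lower and 2 higher.

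The 7 crosslink repair genes all had log2 fold changes below 0, with a median of −0.25, and 1 was called without and 4 with the block. *Fanca* (ENSMUSG00000032815, chr8:123268300-123318576), a subunit of the core complex, stood at 87.5, 74.6, 80.2 and 72.3 CPM with DMSO and at 64.7, 60.8, 59.6 and 55.2 CPM with IOX5. The groups did not overlap. *Fanca* had a log2 fold change of −0.39 (SE 0.079, adjusted *P* = 0.0469, edgeR), with IOX5 at 76.4% of DMSO. The adjusted *P* rose to 0.0504 with RLE factors, 0.0586 with upper-quartile factors and 0.0658 without a filter on low counts, and was 0.00136 with the block. Of its exons, 920 bases lie opposite *Zfp276*, and the reads were counted by strand.

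*Fancb* (chrX:164980592-164997272), another core subunit, stood at 20.1, 18, 18.9 and 17.8 CPM with DMSO and 17.1, 14.1, 14.9 and 14.6 CPM with IOX5. *Fancm* (chr12:65075603-65132058), the translocase that anchors the core complex to DNA, had 52.1, 55.8, 56.9 and 61.4 CPM against 51.3, 42.4, 49.6 and 41.4 CPM. *Fancd2* (chr6:113531682-113597017), which the core complex tags with ubiquitin, had 49.9, 45.1, 51.7 and 50.2 CPM against 41.9, 35.9, 44.7 and 43.1 CPM. None of these 3 genes had overlapping groups. Their log2 fold changes were −0.30, −0.29 and −0.25 (SE 0.099, 0.090 and 0.084), and in edgeR the adjusted *P* values were 0.136, 0.118 and 0.147 without the block and 0.0341, 0.0299 and 0.0229 with it. *Fanci*, the partner of FANCD2, had −0.21 and the helicase *Brip1* −0.17, both lower in 4 of 4 pairs and neither called. *Fancc*, a core subunit, had −0.07 (adjusted *P* = 0.778, edgeR).

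The mismatch repair pair was not called in any of the 20 fits run. *Msh6* (chr17:87975062-87990892) stood at 172, 162, 181 and 194 CPM with DMSO and at 172, 130, 176 and 179 CPM with IOX5, so that only IOX5 replicate 2 lay below the DMSO range. *Pms2* (chr5:143909964-143933968), which cuts the strand to be repaired, had 30.6, 32.0, 33.1 and 35 CPM with DMSO and 35.5, 29.0, 33.9 and 30.4 CPM with IOX5, with no order between the groups. The log2 fold changes were −0.11 (SE 0.11, adjusted *P* = 0.622) and −0.02 (SE 0.088, adjusted *P* = 0.917) in edgeR. Without IOX5 replicate 2 the value of *Msh6* was −0.0113, with the block and without number 2 it was −0.0504, and the median of the pair without IOX5 replicate 2 was 0.0071.

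The 6 end joining genes had a median of −0.12 and went both ways, with 0 called without the block and 2 with it. *Polq* (ENSMUSG00000034206, chr16:37011786-37095417) encodes the polymerase of the microhomology-mediated branch. It stood at 50.8, 51.0, 63.0 and 56.1 CPM with DMSO and 46.7, 34.6, 44.6 and 45.5 CPM with IOX5, with no overlap. *Parp1* (chr1:180568924-180601254) stood at 248, 258, 273 and 282 CPM with DMSO and 211, 192, 254 and 247 CPM with IOX5, and the groups overlapped. The log2 fold change of *Polq* was −0.36 (SE 0.11), with an adjusted *P* of 0.118 in edgeR, 0.00757 with the block and 0.0453 with voom. That of *Parp1* was −0.23 (SE 0.095), with an adjusted *P* of 0.218 in edgeR and 0.0259 with the block.

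The genes of classical end joining, which hold and ligate the ends directly, were not called in either fit of all 8 samples. *Xrcc6* (chr15:81987835-82040085), which encodes Ku70, stood at 71.7, 72.8, 68.5 and 67.9 CPM with DMSO and at 64.1, 53.2, 58.9 and 66.3 CPM with IOX5. The groups did not overlap, and the log2 fold change was −0.21 (SE 0.077, adjusted *P* = 0.171, edgeR). *Xrcc5*, its partner Ku80, was the member with the lowest level, from 1.79 to 3.17 CPM with DMSO and 1.95 to 4.60 CPM with IOX5. Its log2 fold change was 0.43 (SE 0.30, adjusted *P* = 0.461, edgeR), higher in 4 of 4 pairs. The kinase *Prkdc* had 0.10 and the ligase *Lig4* −0.03, with adjusted *P* values of 0.710 and 0.931 in edgeR.

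Other genes of the same pathways were then counted. Of 53 further recombination genes tested, 4 were called lower and 0 higher in edgeR, and 13 lower with the block (median log2 fold change −0.12). The 4 were *Gen1*, a nuclease that resolves crossed strands (−0.44, adjusted *P* = 0.0238), *Smc6* of the SMC5/6 complex (−0.38, 0.0409), the checkpoint scaffold *Mdc1* (−0.46, 0.0409) and the checkpoint mediator *Clspn* (−0.28, 0.0455). Of 21 further crosslink genes, 0 were called without and 4 with the block (median −0.03). The smallest adjusted *P* was 0.0526 in edgeR, for *Faap24* of the core complex (−0.46) and for *Usp1*, which removes ubiquitin from FANCD2 (−0.34).

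Of 15 further mismatch genes, many of them shared with the replication fork, 0 were called without and 5 with the block (median −0.13), led by the ligase *Lig1* (−0.35, adjusted *P* = 0.0606, edgeR) and the clamp loader subunit *Rfc3* (−0.34, 0.0794). Of 19 further end joining genes, *Lig3*, the ligase of the microhomology branch and of single-strand breaks, was the 1 called (−0.34, adjusted *P* = 0.0485, edgeR), with 3 called under the block (median −0.02). Outside these pathways, 22 nucleotide excision genes had a median of 0.01. The damage sensor *Xpc* rose among them (0.49, adjusted *P* = 0.0380, edgeR), and with the block 1 fell and 4 rose. The 15 base excision genes had a median of −0.09, with 0 called without and 4 lower with the block. Their smallest adjusted *P* values were 0.0926 for *Tdg* (−0.28) and 0.166 for *Ung* (−0.38), both glycosylases that remove damaged bases.

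Genes that mark dividing cells were measured beside them. All 30 replication fork genes had log2 fold changes below 0, with a median of −0.27, and 7 were called lower without and 23 with the block. Among them were the nucleotide-supply gene *Rrm2* (−0.51, adjusted *P* = 0.0294, edgeR), *Cdt1* (−0.44, 0.0331) and *Mcm4* (−0.37, 0.0409), which license origins, and also *Cdc6*, *Prim2* and *Tk1*. All 27 mitosis genes lay below 0, with a median of −0.36, and 9 were called without and 24 with the block. The proliferation marker *Mki67* had −0.70 (adjusted *P* = 0.0143, edgeR) and the mitotic kinase *Plk1* −0.57 (0.0163). Of 17 p53 targets, 14 lay above 0 (median 0.33) and *Trp53inp1* was called (0.93, adjusted *P* = 0.0333, edgeR), with 9 called higher under the block. The part of cell cycle position in the repair gene values was not tested.

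**Figure D5:**
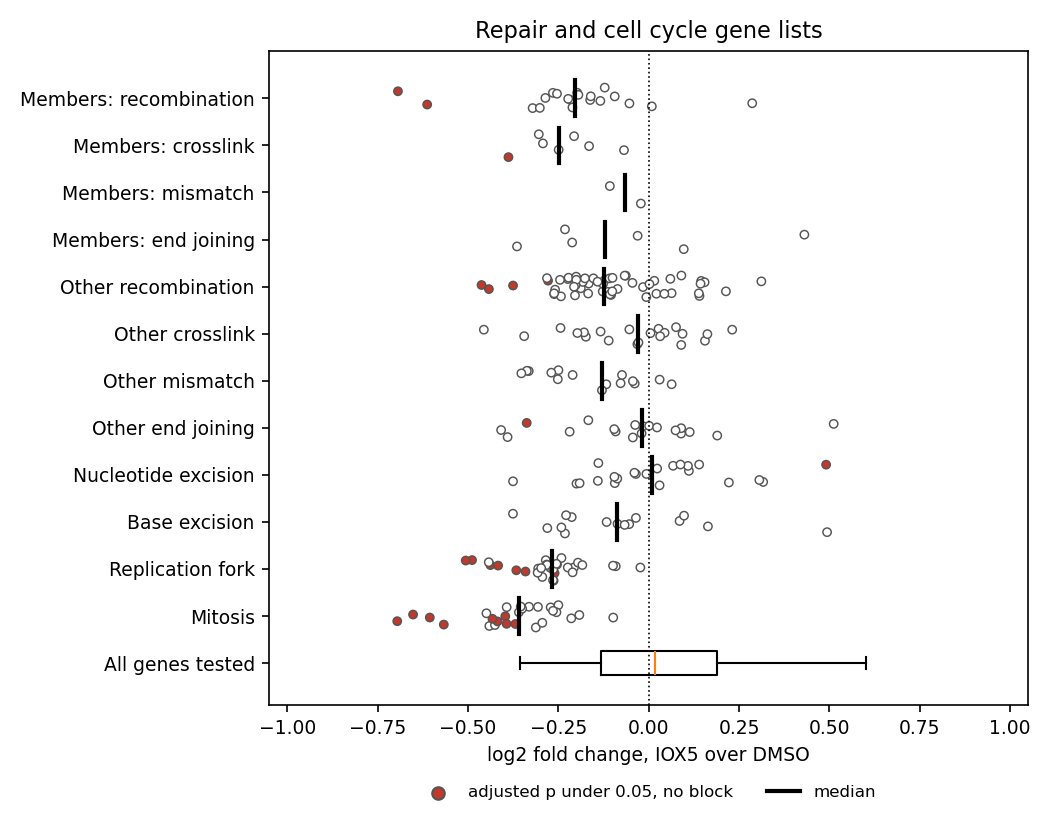
Log2 fold change, IOX5 over DMSO, of each gene in the repair and cell cycle lists (points), with the list median as a bar and genes with an adjusted *P* under 0.05 in edgeR without a block in red. The box gives the quartiles and median of all 12405 genes tested and its whiskers the range from the 5th to the 95th percentile. The members' medians run from −0.25 (crosslink) to −0.06 (mismatch), and those of replication fork and mitosis genes are −0.27 and −0.36.

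The markers of other blood cells also differed between libraries. The summed CPM of 8 macrophage markers ran from 148 to 206 with DMSO and from 226 to 501 with IOX5. None of the 6 tested was called without the block in edgeR, and 2 were called higher with it. The 9 granulocyte markers ran from 537 to 1350 and from 698 to 2090, with *Retnlg* at 0 and 5 called higher with the block. IOX5 replicate 2, lowest for most repair genes, had the largest mean deviation in both lists, 1.44 and 1.49 log2 units above the DMSO mean. DMSO replicate 2 stood at −0.03 in the macrophage list and at 0.95 in the granulocyte list. Over the repair genes, DMSO replicate 2 had a mean deviation of −0.08 and IOX5 replicate 2 one of −0.37. The 8 mast cell and basophil markers ran from 153 to 569 and from 194 to 921, and 7 were called higher with the block. Megakaryocyte markers ran from 40.8 to 106 and from 96.0 to 187, with *Gp1bb* at 0 and *Vwf* called higher (adjusted *P* = 0.0442, edgeR), and 3 called with the block. Erythroid markers ran from 5.83 to 28.0 and from 11 to 43.2 (2 called with the block). Stromal and endothelial markers ran from 85.0 to 168 and from 133 to 223 (1 called with the block). Nearly all of that sum was *Pecam1*, the gene called, at 82.6 to 163 CPM with DMSO and 131 to 218 CPM with IOX5. *Col1a1* and *Pdgfrb* had log2 fold changes of −0.29 and −0.28 and were not called. *Col3a1*, *Cxcl12*, *Cdh5* and *Lepr* had too few reads to be tested. Lymphoid markers summed to at most 0.178 CPM. The 10 stem and progenitor markers ran from 2290 to 5210 and from 2680 to 6120, and 8 were called higher with the block. The part of these markers in the repair gene values was not tested.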

How the data were processed

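RNA was read by single-end, stranded poly(A) sequencing of 4 DMSO and 4 IOX5 samples. The authors trimmed, aligned and counted the reads; per the labels, the tools were cutadapt 1.18, HISAT2 2.2.1 and HTSeq 2.0.1 on GRCm38 (mm10). The deposited values are raw read counts per gene, with strand respected (*Xist* held 105071 reads and its antisense partner *Tsix* 21). The 5 summary lines, 20.6% to 22.6% of each total, were left out. Gene IDs were matched to GENCODE M21 for 54809 of 54838 genes.

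Counts were filtered with filterByExpr (minimum count 10), scaled by TMM and tested with the quasi-likelihood test of edgeR 4.0.16 in R 4.3.3, with Benjamini-Hochberg adjustment over the 12405 genes tested. The common biological coefficient of variation was 0.202. Alternatives were the replicate block, DESeq2 1.42.0, voom with sample weights (limma 3.58.1), other scaling factors, other filters and leaving out samples. The scripts were tested on simulated data. The replicate numbers paired the samples: same-numbered DMSO and IOX5 samples deviated together from their group means, with correlations across genes of 0.758, 0.744, 0.732 and 0.636. Numbers 3 and 4 were not told apart: DMSO replicate 4 correlated at 0.685 with IOX5 replicate 3, and DMSO replicate 3 at 0.617 with IOX5 replicate 4. The methods name no such block.

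Members and lists were chosen with earlier results of these data known. Samples were grouped by the treatment label. Values per sample are given for genes called with or without the block and for the 2 members with the smallest *P* in each pathway; of other genes, those called, or else the 2 with the smallest *P* in a list, are named, and further marker genes serve as checks; 1 called gene of the other lists is not reported here. *Hrob* and *Hop2* were not matched by symbol, and *Poln*, *Neil2* and *Ddit4l* were not tested. Promoters were read from RefSeq windows on GRCm38.p6 and searched on both strands for exact words. Depth sets the precision: the member with the fewest reads, *Xrcc5*, had 306 in all 8 samples.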

Additional observations from a re-analysis of the deposited data

Results flagged for a closer look

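A single sample lay far from the other 3 of its group for 3 of 70 combinations of gene and group, judged by Dixon's ratio of the gap to the range. Chance flags about 1 in 20 such groups. *Rad50* in DMSO replicate 3 was 117 CPM against 105 to 107 CPM in the other DMSO samples (ratio 0.8449). *Msh6* in IOX5 replicate 2 was 130 CPM against 172 to 179 CPM (ratio 0.8411). *Polq* in IOX5 replicate 2 was 34.6 CPM against 44.6 to 46.7 CPM (ratio 0.8292). Without DMSO replicate 3, the log2 fold change of *Rad50* was −0.16 in place of −0.20 (block without number 3, −0.21). Without IOX5 replicate 2, that of *Msh6* was −0.0113 in place of −0.11 (block without number 2, −0.0504) and that of *Polq* −0.28 in place of −0.36 (block without number 2, −0.31).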

How the results depend on the processing

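Depth limits the least abundant genes, and with 4 samples per group the counts of lower calls over all genes and over the repair genes moved whenever a library was left out. The log2 fold change kept its direction for 29 of the 35 repair genes in each fit that left out a sample or a replicate number. It changed sign for 6 genes near 0. Without the block and 1 sample, the ranges were −0.13 to 0.0279 for *Atm*, −0.13 to 0.0363 for *Lig4*, −0.15 to 0.0038 for *Palb2*, −0.0721 to 0.0265 for *Pms2*, −0.0051 to 0.18 for *Prkdc* and −0.0662 to 0.0917 for *Rad54b*. With the block, the reversed values were 0.0323 for *Atm*, 0.0205 for *Lig4* and 0.0483 for *Pms2* without number 4, 0.0174 for *Pms2* without number 2, and −0.0612 and −0.0079 for *Rad54b* without numbers 1 and 3. *Atm* was 0.0165 with voom. The cause was not tested.

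The replicate block, which uses the pairing, moved the calls over all genes from 155 lower and 96 higher to 1170 and 1394, those of the repair genes from 3 lower and 0 higher to 13 and 1, and by pathway to 7 lower in recombination, 4 in crosslink repair and 2 in end joining. Calls it changed in the other lists are given with them, and it changed no other call. DESeq2 called 602 genes lower and 489 higher and voom 610 and 426, with 4 and 5 repair genes lower, 1 of them in end joining under voom. Without a filter 73 genes were lower and 79 higher, and upper-quartile factors gave 108 and 101. The crosslink count was 0 with RLE factors, with upper-quartile factors and without a filter. No scaling moved the median of all genes by as much as 0.1 on the log2 scale.

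Leaving out a sample gave 0 to 338 genes lower and 0 to 128 higher over all genes. The pairs of counts, lower then higher, were 4 and 7 when DMSO replicate 1 was omitted, 7 and 10 for DMSO replicate 2, 38 and 36 for IOX5 replicate 1, 78 and 55 for IOX5 replicate 2, 338 and 128 for IOX5 replicate 4, and 0 of each for the remaining 3 samples. It gave 0 to 2 repair genes lower, 0 to 2 in recombination and 0 in crosslink repair, in end joining and higher. With the block, leaving out replicate numbers 1, 2, 3 and 4 gave 578, 1025, 469 and 972 genes lower and 927, 1125, 665 and 1381 higher, 5 to 9 repair genes lower and 0 to 1 higher, with 4 to 5 in recombination, 1 to 3 in crosslink repair and 0 to 3 in end joining. Where an adjusted *P* was just under the threshold, as for *Fanca*, the range over fits without 1 sample was 0.0549 to 0.136, and it was 0.0244 to 0.0948 for *Bard1* and 0.0330 to 0.0959 for *Brca2* in edgeR.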
